A study of Mus musculus with 14 samples.

Results

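Pdgfra, Kit and Kdr are neighbouring genes on mouse chromosome 5 that encode receptor tyrosine kinases. To describe how chromatin around them changed while GATA6 was induced, accessible regions were taken from ATAC-seq, in which a transposase inserts sequencing adapters into open DNA. The members were all merged accessible regions whose nearest protein-coding transcription start site (TSS) was that of Pdgfra, Kit or Kdr, at no more than 50 kb. This gave 44 of the 124598 regions in the series, of which 20 belonged to Pdgfra, 17 to Kit and 7 to Kdr. In GRCm38, Pdgfra (ENSMUSG00000029231) spans chr5:75152292-75198215 on the plus strand, Kit (ENSMUSG00000005672) spans chr5:75574916-75656722 on the plus strand and Kdr (ENSMUSG00000062960) spans chr5:75932827-75978458 on the minus strand.

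All groups were KH2 mouse embryonic stem (ES) cells, labelled C57BL/6, with the transgene TRE:GATA6-DSREd2, which doxycycline (Dox) switches on. The 0 h group was grown in 2i medium, which is free of serum, and got no Dox. The 2, 4 and 8 h groups were in serum medium with Dox at 1 µg/mL throughout, and the 16, 24 and 48 h groups had the same Dox for 12 h followed by serum medium without it. Each of the 7 time points had 2 libraries of 50000 cells, 14 in all, and the labels do not say whether these were separate cultures. The study's reporting form states that replicates were independent, without naming the assay. The p-values come from permuting times over the libraries, each taken as independent, and do not measure the spread between cultures. The move from 2i to serum and the addition of Dox cannot be told apart, because no library came from serum-grown cells that never got Dox. The transgene raises GATA6 from a drug-driven promoter in cultured cells and is a model of the lineage, not the embryo itself.

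The receptors share a common plan, with an extracellular ligand-binding part, a single membrane span and a split kinase domain inside the cell. Pdgfra binds platelet-derived growth factors and is a widely used surface marker of primitive endoderm (PrE), the blastocyst lineage that gives rise to yolk sac endoderm. Kit binds stem cell factor and is needed in germ cells, melanocytes and blood progenitors. Kdr, also called VEGFR2, is the main signalling receptor for vascular endothelial growth factor in endothelial cells and their precursors.

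The sequences below show the centres of regions that differed between 48 h and 0 h. A gained region was called in both 48 h libraries and in neither 0 h library, and a lost one the reverse. For each gene they include the gained region that ranked highest in the 48 h lists and the lost region that ranked highest in the 0 h lists, by peak score. Those 8.4 kb upstream of Pdgfra and 5.1 kb into Kit were added after their values had been seen, because both were gained at 4 h and rose with time. The bases are from GRCm38 and run 5′ to 3′ on the strand of the gene. Capitals mark matches, on either strand, to the GATA words. These are AGATAA, the word AGATAG, the word TGATAA, and the word TGATAG. Exon bases were left out, which shortened the last sequence.
Pdgfra, 14.7 kb upstream, gained (chr5:75137476-75137675, plus strand): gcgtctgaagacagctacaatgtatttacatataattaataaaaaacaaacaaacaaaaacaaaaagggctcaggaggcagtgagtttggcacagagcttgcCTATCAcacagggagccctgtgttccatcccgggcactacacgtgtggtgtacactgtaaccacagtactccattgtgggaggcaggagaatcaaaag
Pdgfra, 8.4 kb upstream, gained (chr5:75143743-75143942, plus strand): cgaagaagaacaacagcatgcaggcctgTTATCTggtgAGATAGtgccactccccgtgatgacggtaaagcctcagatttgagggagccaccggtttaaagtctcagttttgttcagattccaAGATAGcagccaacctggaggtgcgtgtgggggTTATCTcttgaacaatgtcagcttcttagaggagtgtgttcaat
Kit, 5.1 kb downstream, gained (chr5:75579891-75580090, plus strand): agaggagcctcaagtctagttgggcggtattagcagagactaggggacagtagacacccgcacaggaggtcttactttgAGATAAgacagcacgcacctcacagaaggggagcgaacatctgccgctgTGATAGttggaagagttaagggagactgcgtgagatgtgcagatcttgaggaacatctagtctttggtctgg
Kit, 49.5 kb downstream, gained (chr5:75624276-75624475, plus strand): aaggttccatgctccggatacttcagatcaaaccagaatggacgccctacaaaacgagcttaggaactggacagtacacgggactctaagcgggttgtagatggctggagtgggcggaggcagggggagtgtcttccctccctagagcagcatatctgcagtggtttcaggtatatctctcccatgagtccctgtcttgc
Kdr, 6.5 kb downstream, gained (chr5:75971869-75972068, minus strand): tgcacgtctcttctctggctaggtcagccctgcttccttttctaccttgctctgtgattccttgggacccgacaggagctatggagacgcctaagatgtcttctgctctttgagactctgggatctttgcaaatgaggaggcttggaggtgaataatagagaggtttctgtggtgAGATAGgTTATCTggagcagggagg
Pdgfra, 37.4 kb downstream, lost (chr5:75189546-75189745, plus strand): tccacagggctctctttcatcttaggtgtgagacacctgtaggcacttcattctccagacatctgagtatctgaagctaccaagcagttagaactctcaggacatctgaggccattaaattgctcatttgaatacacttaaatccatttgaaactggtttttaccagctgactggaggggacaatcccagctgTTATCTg
Kit, 36.6 kb upstream, lost (chr5:75538173-75538372, plus strand): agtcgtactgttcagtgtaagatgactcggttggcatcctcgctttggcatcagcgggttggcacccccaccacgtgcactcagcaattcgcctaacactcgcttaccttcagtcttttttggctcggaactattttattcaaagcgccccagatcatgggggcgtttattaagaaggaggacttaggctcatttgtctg
Kdr, 36.5 kb downstream, lost (chr5:75941962-75942032, minus strand): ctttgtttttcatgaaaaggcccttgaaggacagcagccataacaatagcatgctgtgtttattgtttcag
The stretch 8.4 kb upstream of Pdgfra held 4 GATA words, those within Kit at 5.1 kb and Kdr at 6.5 kb held 2 each, and the Pdgfra stretches at 14.7 kb upstream and 37.4 kb downstream held 1 each. The other Kit stretches and the Kdr stretch at 36.5 kb held 0. The called stretches just upstream of the Kit and Kdr TSS also held 0 and are not shown.

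The files list peaks and no read counts. Read numbers given by the study were not used here, and a region absent from a list may still be accessible below the calling threshold. In bulk libraries, fewer cells with an open region and less opening per cell cannot be told apart. The lists held 55588 to 65073 peaks and covered 23.0 to 31.2 Mb, with the fewest peaks in 48 h replicate 1. As a check of the labelled lineage, the number of called regions over time was tested for markers, and 8 of 10 PrE genes rose and 0 fell (permutation test, Benjamini-Hochberg adjusted p under 0.05), against 12.4% and 10.9% of all genes tested. Of 10 ES or epiblast genes, 1 rose, Klf4, and 0 fell, with 52 to 63 called regions per library in all at 0 h and 56 to 60 at 48 h.

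The accessible landscape around Pdgfra grew over the time course, whereas no rise around Kit or Kdr passed the test within 50 kb. For Pdgfra, the 0 h libraries called 3 and 2 regions, the 2 h libraries 3 and 3, the 4 h libraries 4 and 5, and the 8 h libraries 7 and 8. The 16 h libraries called 11 and 9, the 24 h libraries 8 and 7, and the 48 h libraries 12 and 10. Every library from 8 h on was above every library up to 4 h, while 0 h overlapped 2 h, 8 h overlapped 24 h, and 16 h overlapped 48 h. The number rose with time by a two-sided permutation test over the 14 libraries. Spearman rho was 0.90 (p = 4e-05, Benjamini-Hochberg adjusted p = 0.00178 over 11553 genes), and Pearson r was 0.81 (p = 0.00014, adjusted p = 0.00384 by the same permutation). When the 48 h libraries, which lie farthest out in time, were dropped, r was 0.78 (permutation p = 0.00339, 12 libraries). Against the same 12.4% and 10.9% of all genes, the rho of Pdgfra lay at the 98.7th percentile. The genes tested had a median of 5 regions, against 20 for Pdgfra, and the percentile was not matched for this number. The length covered by called peaks near Pdgfra was 1748 and 1435 bp at 0 h and 5665 and 5361 bp at 48 h. Within the 12 libraries in serum, rho was 0.85 (permutation test, adjusted p = 0.0112).

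For Kit, the 0 h libraries called 8 and 11 regions, the 2 h libraries 5 and 8, the 4 h libraries 7 and 9, and the 8 h libraries 6 and 10. The 16 h libraries called 8 and 5, the 24 h libraries 6 and 7, and the 48 h libraries 5 and 4. The 48 h libraries lay at or below all others, but replicates of a time point differed by up to 4 regions and most time points overlapped. The correlation did not pass the threshold by permutation, with rho of -0.60 (p = 0.0276, adjusted p = 0.0892) and r of -0.62 (p = 0.0165, adjusted p = 0.0623). With 48 h dropped, r was -0.39 (permutation p = 0.213). Within 20 kb of the TSS rho was -0.14 (permutation test, adjusted p = 0.780). Covered length was 3531 and 4432 bp at 0 h and 2272 and 1966 bp at 48 h. The fall passed when this length was used in place of the number (rho = -0.76, permutation test, adjusted p = 0.0175) and when 2 h replicate 1 was left out (rho = -0.75, adjusted p = 0.0291). All peaks of a list together covered 28.0 and 29.9 Mb at 0 h and 23.0 and 25.6 Mb at 48 h. The test on length did not adjust for this, so it does not show a fall particular to Kit.

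Kdr had between 2 and 4 called regions in every library, with 2 and 3 at 0 h, 4 and 4 at 2 h, 3 and 3 at 4 h, and 2 and 2 at 8 h. The 16 h libraries called 3 and 3, the 24 h libraries 2 and 2, and the 48 h libraries 2 and 3. The 2 h libraries were the highest, and the later values overlapped those of 0 h. The correlation with time did not pass either, with rho of -0.39 (permutation p = 0.185, adjusted p = 0.338) and r of -0.32 (permutation p = 0.273, adjusted p = 0.429). With 48 h dropped, r was -0.45 (permutation p = 0.155). Covered length near Kdr was 2002 and 2739 bp at 0 h and 1122 and 1696 bp at 48 h. A fall passed when this length was used in place of the number (rho = -0.75, permutation test, adjusted p = 0.0190). As for Kit, this was not adjusted for the shorter length covered by all peaks at 48 h. The sign of rho for the number depended on the distance allowed. Within 20 kb of the TSS rho was 0.70 (permutation test, adjusted p = 0.0254), and within 100 kb it was -0.80 (adjusted p = 0.00973). Within the 12 libraries in serum, rho was -0.46 for Kit (permutation test, adjusted p = 0.272) and -0.61 for Kdr (adjusted p = 0.115). The difference in trend between the 3 genes was not tested.

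**Figure D1:**
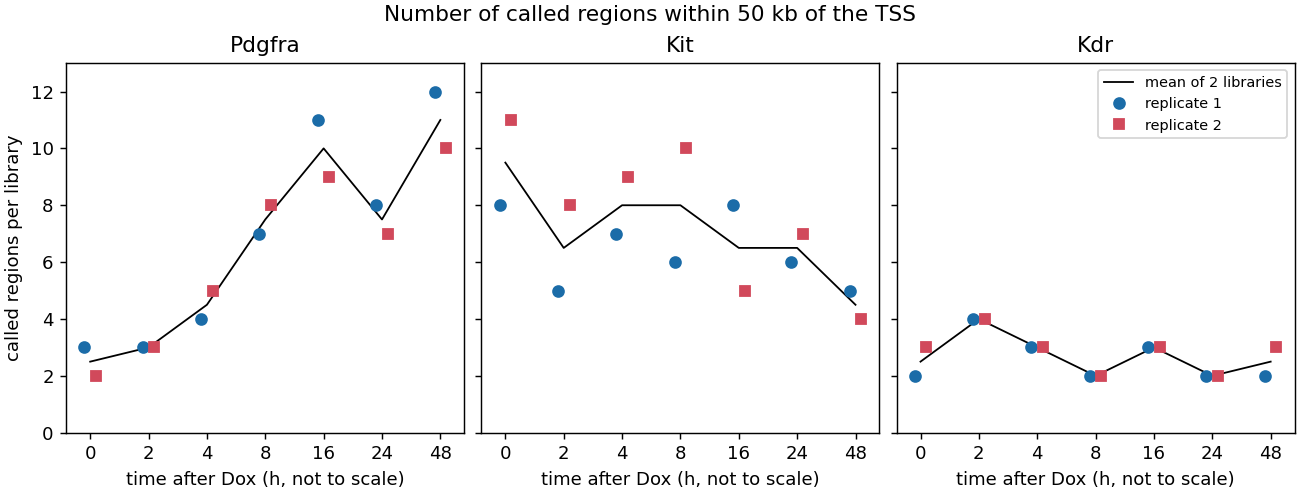
Called regions within 50 kb of the TSS of Pdgfra, Kit and Kdr (y axis, number per library) at each time after Dox (x axis, hours, evenly spaced). Points are single libraries and the line is the mean of 2; Pdgfra goes from 2 to 3 regions at 0 h to 10 to 12 at 48 h, Kit from 8 to 11 to 4 to 5, and Kdr stays between 2 and 4.

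**Figure D2:**
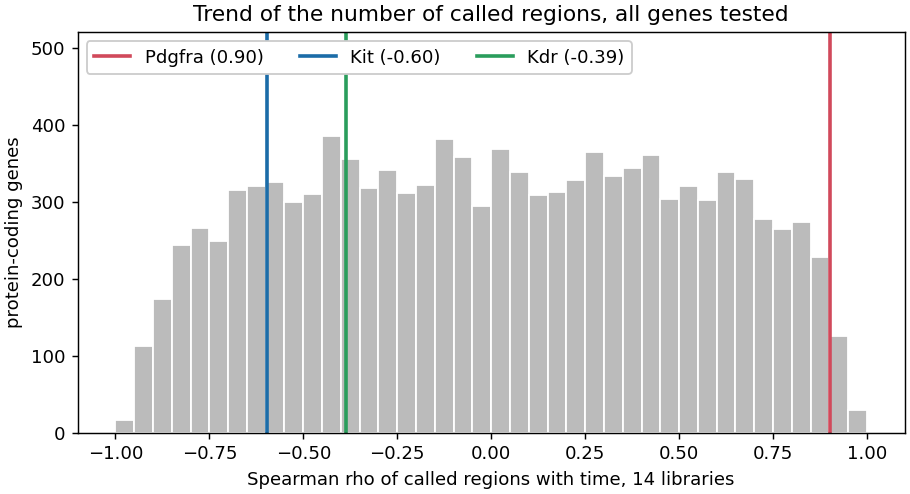
Distribution of Spearman rho between called regions and time (x axis) over 11553 protein-coding genes (y axis, number of genes), with the 3 receptor genes as vertical lines. Pdgfra at 0.90 lies in the upper tail, while Kit at -0.60 and Kdr at -0.39 lie among many other genes.

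Single regions were then followed, starting with Pdgfra. A region was counted as gained when both libraries of a time point and neither 0 h library called it, and as lost in the reverse case. An exact two-sided test of 2 against 2 cannot give a p below 0.333. No p-value is therefore printed for these counts, which are set beside the share of all regions that did the same. Pdgfra gained 2 of its 20 regions at 2 h (10.0%, against 8.64% of all regions), 3 at 4 h (15.0% against 10.1%) and 5 at 8 h (25.0% against 11.1%). It gained 8 at 16 h (40.0% against 13.3%), 5 at 24 h (25.0% against 11.6%) and 9 at 48 h (45.0% against 14.5%). It lost 1 region at 2, 8, 24 and 48 h and 0 at 4 and 16 h, while the share of all regions lost was 6.25% (2 h), 7.37% (4 h), 9.99% (8 h), 9.71% (16 h), 13.2% (24 h) and 16.6% (48 h). At 2 h the gained share was near that of all regions, and from 8 h on it stood at 25.0% to 45.0%. These counts share the same 0 h libraries. With 2 h in place of 0 h as the reference, and so within serum, 7 regions were gained at 48 h and 0 were lost, against 13.4% and 17% of all regions.

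The 9 regions gained at 48 h appeared in steps. In both libraries, 2 of them were called from 2 h, 1 from 4 h, 1 from 8 h, 2 from 16 h and 3 at 48 h only. Of the 9, 6 lay upstream of the TSS and 3 within the gene. The upstream ones, apart from the one at 0.8 kb, lay in introns of the long noncoding gene Gm19583.

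The region 14.7 kb upstream (chr5:75137037-75138115) was called in neither 0 h library and in all 12 later ones. Each peak carries the authors' score, ranked here as a percentile within its own list. The percentile of this region was 70.6 and 80.1 at 2 h, 80.4 and 76.9 at 4 h, 84.6 and 85.8 at 8 h, 82.6 and 83.1 at 16 h, 92.0 and 94.4 at 24 h, and 95.7 and 89.3 at 48 h. It was among the strong peaks of each list after induction. The region 33.7 kb upstream (chr5:75118015-75119260) had the same calls with a different course, at percentiles of 1.97 and 31.3 at 2 h, 89.7 and 81.1 at 8 h, and 60.8 and 60.5 at 48 h. Both missed the trend threshold (exact permutation p = 0.0220, Benjamini-Hochberg adjusted p = 0.0541 each), as does any region called in all libraries but those of 0 h.

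The region 8.4 kb upstream (chr5:75143594-75144092), which holds 4 GATA words, was called in 0 of 4 libraries up to 2 h and in all 10 from 4 h on. It entered near the top of the lists, at percentiles of 91.8 and 94.3 at 4 h and 97.6 and 97.9 at 8 h, and stood at 96.7 and 96.8 at 16 h, 89.4 and 88.9 at 24 h, and 83.9 and 87.2 at 48 h. It rose with time in calls (exact permutation p = 0.0020, adjusted p = 0.0130). Close to it, a region 8.9 kb upstream was called in the 48 h libraries only, and when peaks up to 100 bp apart were joined the rise did not pass (exact permutation test, adjusted p = 0.0724). That joined region also took in a region 9.1 kb upstream, called in 0 h replicate 1 alone at a percentile of 13.2. It was therefore no longer gained, and 7 Pdgfra regions were gained at 48 h with this joining.

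Around the gene's start, the most upstream annotated TSS lay in no region of any library. Of 9 annotated Pdgfra transcripts, 3 start inside a region. For 1 of these 3, that region lay 4.4 kb downstream and was called in 8 h replicate 2 alone, at a percentile of 0.00163. A region 3.8 kb downstream (chr5:75155727-75156508), which holds one such start and overlaps an annotated UTR, was called in all 14 libraries with percentiles between 69.7 and 85.4. Next to it, the region 2.8 kb downstream (chr5:75154896-75155342) also holds a transcript start and was called only from 16 h, at percentiles of 12.1 and 40.9 at 16 h, 42.3 and 45.1 at 24 h, and 77.9 and 74.8 at 48 h. This later region rose with time (exact permutation p = 0.000666, adjusted p = 0.0130), and its 48 h values lay in the range of the constant region beside it. The region 0.8 kb upstream (chr5:75151221-75151760) was called in both libraries at 8, 16 and 48 h but in neither at 24 h, and did not pass (exact permutation p = 0.0480, adjusted p = 0.103).

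The region 28.0 kb upstream was at the edge of the threshold (exact permutation p = 0.00932, adjusted p = 0.0451), with 0 calls up to 4 h, both libraries of 16 and 48 h calling it and 1 library each of 8 and 24 h. Leaving out either library of 2, 4 or 16 h, or 8 h replicate 2, ended the call (adjusted p 0.0502 to 0.0555). Its percentiles ranged from 3.54 to 36.3, so it was a weak peak wherever it was called. Inside the gene, regions 8.3 and 24.0 kb downstream were called at 48 h only, at percentiles of 24.5 and 24.6, and of 17.5 and 24.3. The lost region, 37.4 kb downstream in an intron (chr5:75189171-75190120), had percentiles of 53.2 and 70.4 at 0 h, and was called later only in 1 library each of 4 h and 16 h, at 3.68 and 3.86. The other 9 Pdgfra regions were called in at most 4 libraries each. Of these, the one 12.0 kb upstream was called in both 16 h libraries alone, and the one 5.6 kb upstream in both libraries at 8 and 24 h.

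**Figure D3:**
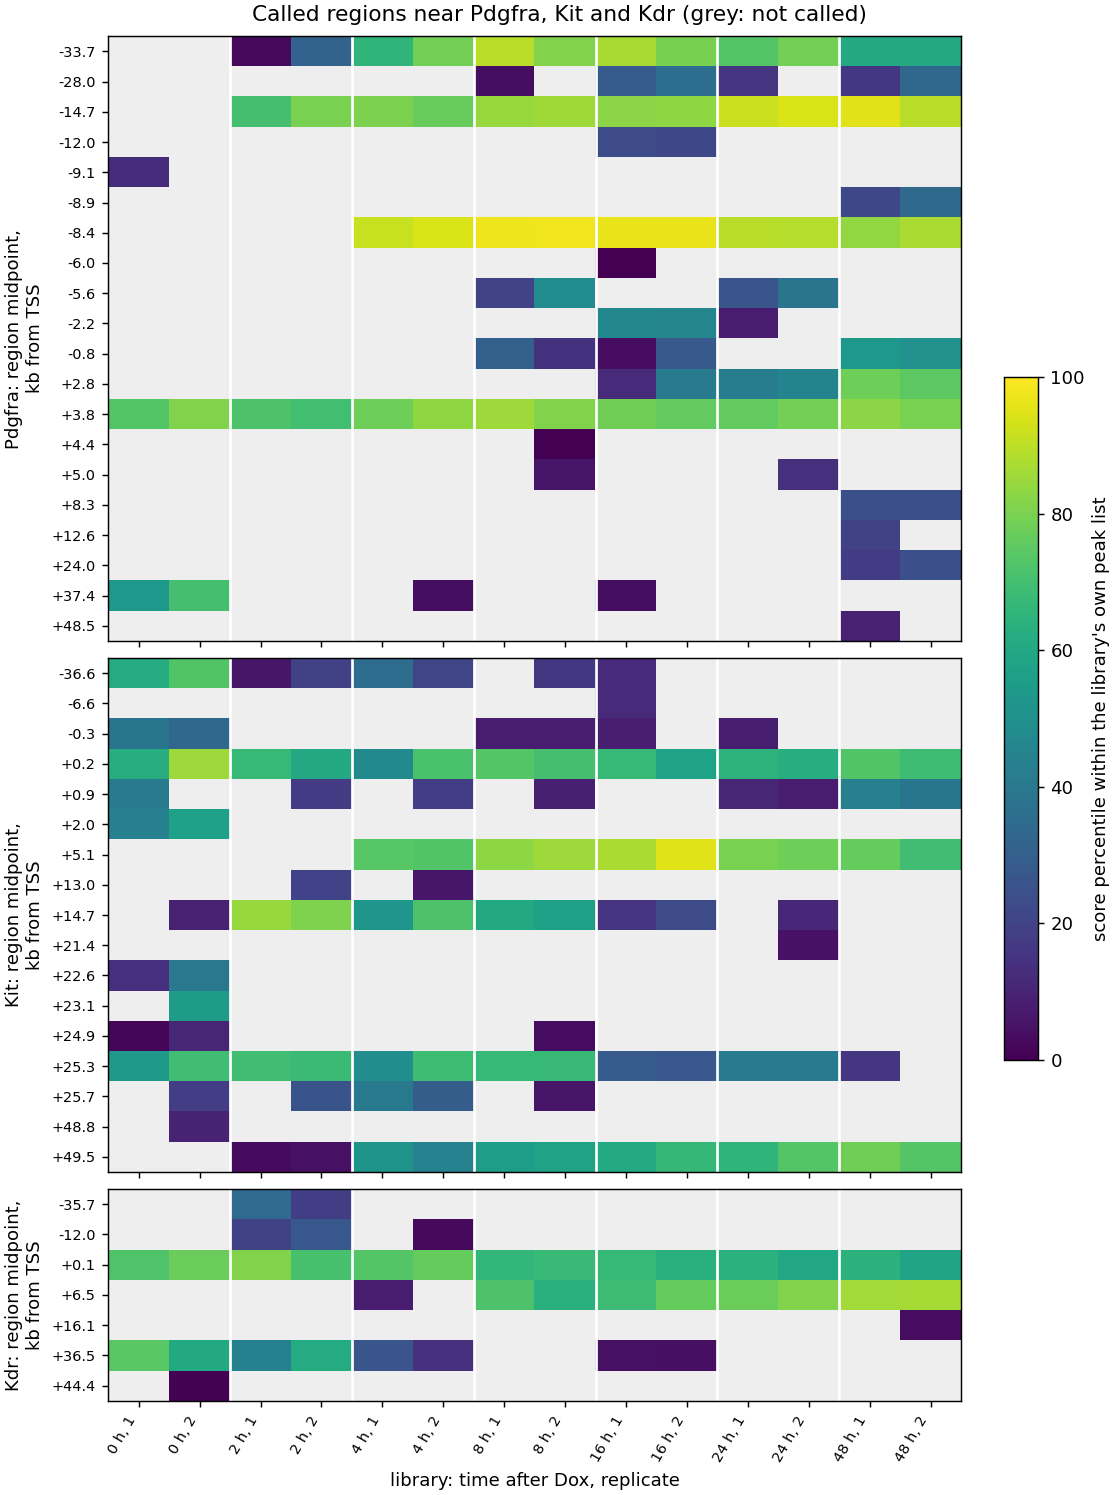
Each row is one of the 44 regions, by distance of its midpoint from the TSS in kb (y axis), and each column a library (x axis, hours after Dox and replicate). Colour is the score percentile within the library's own list and grey means not called; near Pdgfra the rows fill from left to right, with the 3.8 kb row filled throughout.

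Kit had more lost than gained regions at 5 of 6 time points. All regions together also had more lost than gained at 24 and 48 h, with the shares given above for Pdgfra. At 2 h, 1 of 17 regions was gained (5.88% against 8.64% of all regions) and 4 were lost (23.5% against 6.25%). At 4 h, 2 were gained (11.8% against 10.1%) and 4 lost (23.5% against 7.37%), and at 8 h 2 were gained and 2 lost (11.8% each, against 11.1% and 9.99%). At 16 h, 2 were gained (11.8% against 13.3%) and 3 lost (17.6% against 9.71%), and at 24 h 2 were gained (11.8% against 11.6%) and 4 lost (23.5% against 13.2%). At 48 h, 2 were gained (11.8% against 14.5%) and 5 lost (29.4% against 16.6%). With peaks up to 100 bp apart joined, 3 Kit regions were lost at 48 h. With 2 h as the reference 1 was gained and 2 were lost, so 48 h counts for Kit were smaller within serum.

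The Kit promoter region (chr5:75574772-75575447), which covers the TSS and the first coding exon, was called in all 14 libraries at percentiles from 48.0 to 85.3. Its 0 h mean of 73.8 ± 16.3 and its 48 h mean of 70.8 ± 2.81 (SD, n = 2) differed by an amount within the spread between replicates. A small region just upstream, at 0.3 kb, was lost at 48 h but had been called again in both 8 h libraries. It lies within 100 bp of the promoter region, which was still called. In the gene's long introns, the 2.0 and 22.6 kb regions were called in the 0 h libraries only, at percentiles of 43.5 and 57.4, and of 14.1 and 39.9, and the 24.9 kb region was called otherwise in 1 library at 8 h. The 24.9 kb region lies within 100 bp of the region at 25.3 kb, which was called in 13 libraries.

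Far upstream, the region at 36.6 kb (chr5:75537710-75538836) had percentiles of 61.6 and 72.9 at 0 h, 5.99 and 19.6 at 2 h, and a mean of 28.2 ± 10.2 (SD, n = 2) at 4 h. It was called in 1 library each at 8 and 16 h, at 16.1 and 11.7, and in none at 24 and 48 h. It fell with time (exact permutation p = 0.00333, adjusted p = 0.0206), but with 50% of the region required to be covered the adjusted p was 0.188.

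Both gained Kit regions were intronic and appeared early. The region 5.1 kb downstream (chr5:75579633-75580348) was called in all 10 libraries from 4 h on and in none before, and rose with time (exact permutation p = 0.0020, adjusted p = 0.0130). Its percentiles were 74.2 and 72.9 at 4 h, 83.1 and 85.2 at 8 h, 87.4 and 95.2 at 16 h, 79.8 and 78.0 at 24 h, and 76.2 and 69.4 at 48 h, and it stood above the promoter region in each of these libraries. The region 49.5 kb downstream (chr5:75624002-75624749) was called in all 12 induced libraries. It began as one of the weakest peaks, at 2.87 and 4.45 at 2 h, and stood at 51.7 and 44.2 at 4 h and 78.3 and 73.3 at 48 h (exact permutation p = 0.0220, adjusted p = 0.0541).

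The other 9 Kit regions were called in 1 to 13 libraries. The one 14.7 kb downstream was strongest at 2 h, at percentiles of 84.5 and 80.7, against 9.34 in the one 0 h library that called it, 15.3 and 23.3 at 16 h, and no call at 48 h. It was singled out after its values were seen, and the trend test, which looks for a steady course, did not pass (exact permutation p = 0.208, adjusted p = 0.328). The region 25.3 kb downstream was called in 13 libraries and had percentiles of 54.1 and 69.2 at 0 h, 28.7 and 27.1 at 16 h, and 15.9 in the single 48 h library that called it. Next to the promoter, the region 0.9 kb downstream was called in 8 libraries spread over the course, and the one at 25.7 kb in 5, none of them after 8 h. The remaining 5 were called in 1 or 2 libraries each.

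Kdr had the fewest regions, and its start was open throughout. The promoter region (chr5:75977618-75979005), over the TSS of all 3 annotated transcripts, was called in all 14 libraries at percentiles from 58.3 to 81.1, with means of 74.9 ± 3.42 (0 h) and 61.3 ± 4.28 (48 h; SD, n = 2). The 0 h and 48 h percentiles did not overlap, and no test was made on scores, whose scale is not stated. At 48 h, 1 of 7 regions was gained and 1 was lost (14.3% each), near the 14.5% and 16.6% of all regions.

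The gained region lay in an intron 6.5 kb downstream (chr5:75971620-75972318). It was called in 1 of the 4 h libraries at a percentile of 7.58, and then in all 8 libraries from 8 h on, at 72.0 and 63.6 at 8 h, 68.7 and 76.4 at 16 h, 77.6 and 81.1 at 24 h, and 86.2 and 86.4 at 48 h. It rose with time (exact permutation p = 0.0020, adjusted p = 0.0130), and at 48 h it stood above the promoter region in both libraries. With 50% of the region required to be covered the rise did not pass (exact permutation test, adjusted p = 0.0791). The lost region, 36.5 kb downstream and over a coding exon (chr5:75941446-75942419), had percentiles of 74.5 and 60.9 at 0 h, 44.0 and 61.6 at 2 h, and 26.4 and 13.5 at 4 h. It was absent at 8 h, back at 4.58 and 4.21 at 16 h, and absent at 24 and 48 h, and it fell with time (exact permutation p = 0.00932, adjusted p = 0.0451). Leaving out either library of 2, 4 or 24 h ended this call (adjusted p 0.0502 to 0.0591). Upstream of Kdr, the regions at 12.0 and 35.7 kb were called in both 2 h libraries and in neither 0 h library, and neither was called after 4 h. The regions 16.1 and 44.4 kb downstream were each called in 1 library, of 48 h and 0 h, at percentiles of 3.49 and 0.539.

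**Figure D4:**
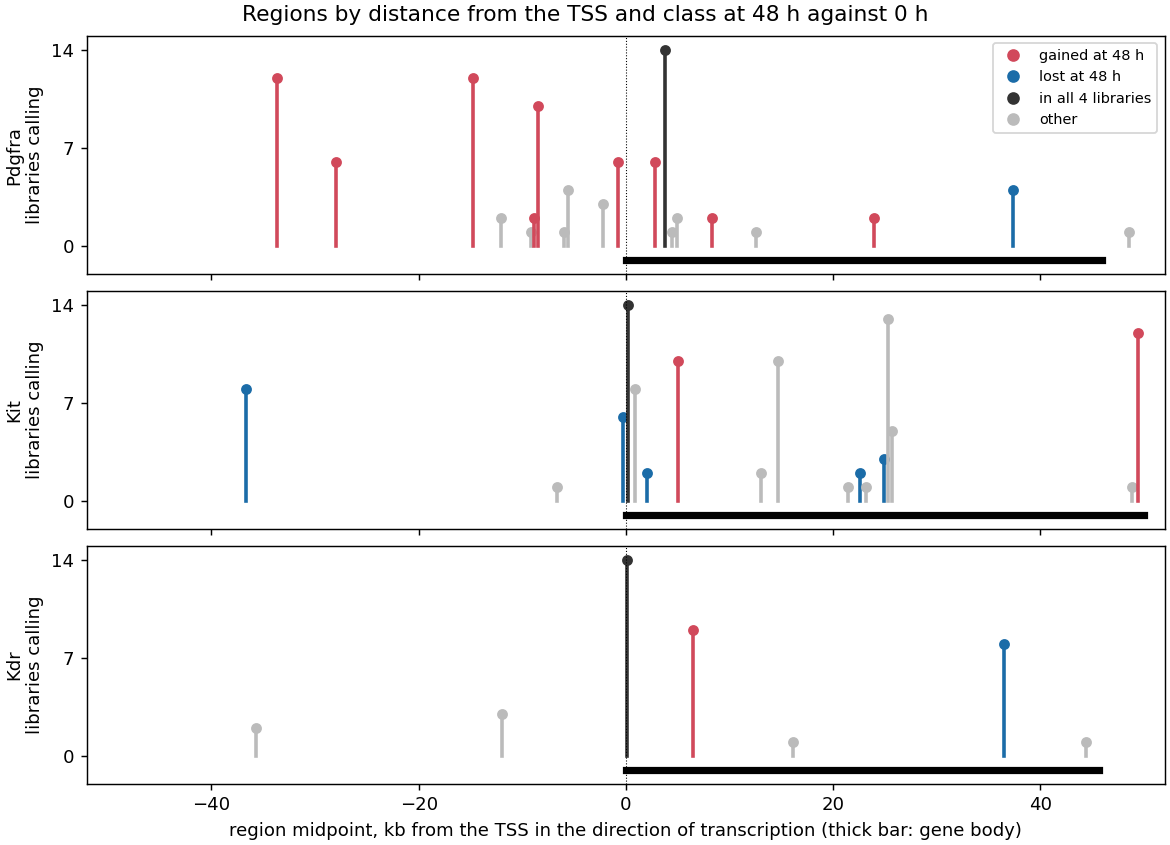
Regions by distance of the midpoint from the TSS along the direction of transcription (x axis, kb) and by the number of the 14 libraries that called them (y axis), for each gene. Red marks regions gained at 48 h, blue lost, black those called by every 0 h and 48 h library and light grey the rest, and the thick bar is the gene body up to 50 kb; 6 of the 9 gained Pdgfra regions lie upstream, while the 3 gained ones of Kit and Kdr lie inside the genes.

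In all, 29 of the 44 regions were called in 2 to 12 libraries and could be tested for a trend, since 11 were called in 1, 1 in 13 and 3 in all. Of the 29, 5 rose (17.2%; all 79559 regions tested 12.1%) and 2 fell (6.90%; 12.3%). The 5 that rose were 3 of Pdgfra and 1 each of Kit and Kdr, and the 2 that fell were 1 each of Kit and Kdr. Without the 0 h libraries, and so within serum, 1 region rose, the one 2.8 kb into Pdgfra, and 0 fell. The adjusted p of the other 6 was then 0.0523 to 0.0622 (exact permutation test). Among them, those 8.4 kb upstream of Pdgfra and 5.1 kb into Kit were called in all remaining libraries but those of 2 h. A region with such calls cannot pass without the 0 h libraries, so their adjusted p of 0.0622 does not decide whether they rose within serum. Near the distance limit, the outermost members lay 48.5 kb from the Pdgfra TSS, 48.8 and 49.5 kb from that of Kit and 44.4 kb from that of Kdr, and the nearest regions left out lay at 53.6, 51.5 and 50.5 kb. Of these members, the 49.5 kb region was called in 12 libraries and the others in 1 each, while those left out were called in both 0 h libraries (Pdgfra and Kit) or in 1 of them (Kdr).

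GATA words were compared over the 200 bp at the centre of each region. They were found in 16 of the 44 regions (36.4%), against 35.5% of all regions, and in 10 of 20 for Pdgfra, 4 of 17 for Kit and 2 of 7 for Kdr. Of the 12 gained regions 7 held one (58.3%), against 57.8% of all gained regions, and of the 7 lost regions 1 did (14.3%), against 22.5% of all lost regions. The gained regions thus held GATA words about as often as gained regions elsewhere. Among the 9 gained Pdgfra regions, 5 held a word, with 3 in the region at 0.8 kb upstream, 2 in that at 8.3 kb downstream and 0 in those 33.7 and 8.9 kb upstream and 2.8 and 24.0 kb downstream. The SOX words ACAATG and ACAAAG were in 14 of 44 (31.8%; all regions 30.3%), the SP/KLF word GGGCGG in 9 (20.5%; 14.6%), the AP-1 word TGANTCA in 1 (2.27%; 11.7%) and the octamer ATGCAAAT in 3 (6.82%; 2.34%). Both strands were searched, each motif was counted on its own even where matches overlapped, and a match is not evidence of binding.

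Genes with the most similar course were sought by Pearson correlation of the number of called regions over the 14 libraries, among 7141 genes with at least 5 regions. Closest to Pdgfra were Dkk1, a secreted Wnt inhibitor (r = 0.95), Cyth3 (r = 0.94) and Huwe1, a ubiquitin ligase (r = 0.94). Dkk1 had 5 called regions in each 0 h library and 8 in each 48 h library, and Cyth3 had 1 and 4. Closest to Kit were Pcdh7, a protocadherin, Thnsl2 and Tmem201 (r = 0.83, 0.83 and 0.82), and closest to Kdr were Sox9, a transcription factor, Slc9b1 and Vtcn1 (r = 0.87, 0.86 and 0.86). These are the highest values among many genes over shared libraries and carry no test.

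Other receptors of the PDGF, KIT, CSF1, FLT3 and VEGF families and the coreceptors Nrp1 and Nrp2 were read from a list of 7 genes. Of these, 6 could be tested, and 1 rose and 0 fell (permutation test, Benjamini-Hochberg adjusted p under 0.05, median rho -0.04 against 0 for all genes), with 12.4% and 10.9% of all genes doing so. The one that rose was Nrp1, a coreceptor for VEGF and semaphorins, from 0 and 0 called regions at 0 h to 1 and 2 at 48 h (rho = 0.71, permutation test, adjusted p = 0.0348). Pdgfrb, the other PDGF receptor, had 4 and 4 at 0 h and 3 and 3 at 48 h (rho = 0.14, permutation test, adjusted p = 0.769), and Flt1, a VEGF receptor, 5 and 6 against 4 and 4 (rho = -0.51, permutation test, adjusted p = 0.182).

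Of 13 ligand genes 9 were tested, of which 1 rose and 1 fell, near the 12.4% and 10.9% of all genes, with a median rho of 0.33. Pdgfa, a ligand of Pdgfra, rose from 5 and 5 called regions to 6 and 7 (rho = 0.67, permutation test, adjusted p = 0.0467). Pdgfc, another ligand of Pdgfra, fell from 6 and 8 to 1 and 4 (rho = -0.80, permutation test, adjusted p = 0.00893). Kitl, which encodes the Kit ligand, had 1 and 1 at 0 h and 3 and 3 at 48 h and did not pass (rho = 0.64, permutation test, adjusted p = 0.0589), and Vegfa, the main Kdr ligand, had 5 and 4 at both times (rho = -0.12, permutation test, adjusted p = 0.825).

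Of 12 genes for adaptors and effectors 11 were tested, and 2 rose and 0 fell (median rho 0.13), against 12.4% and 10.9% of all genes. Pik3ca, a catalytic subunit of PI3-kinase, rose from 1 and 1 to 3 and 3 (rho = 0.87, permutation test, adjusted p = 0.00423), and Sh2b3, an adaptor that restrains Kit signalling, from 3 and 3 to 5 and 6 (rho = 0.89, permutation test, adjusted p = 0.00239). Of 14 neighbouring genes on chromosome 5, 11 were tested, and 0 rose and 3 fell, against 12.4% and 10.9% of all genes, with a median rho of -0.26. These were Tmem165, Clock and Pdcl2, and Clock, a core circadian factor, went from 3 and 3 called regions to 1 and 1 (rho = -0.90, permutation test, adjusted p = 0.00208).

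Markers of other cell types were read the same way, beside the 12.4% of all genes that rose and the 10.9% that fell. Of 9 blood and endothelial genes tested 0 rose and 1 fell, Tek, with summed calls of 21 to 26 per library at 0 h and 20 to 22 at 48 h. Of 4 mesoderm genes 0 rose and 0 fell (12 to 16 against 13 to 14), of 4 germ cell genes 1 rose, Dazl, and 0 fell (15 to 18 against 19 to 20), and of 6 trophectoderm genes 0 rose and 0 fell (25 to 28 against 29 to 31). The PrE genes went from 22 to 26 summed calls at 0 h to 60 to 63 at 48 h, alongside the rise at Pdgfra. The part of other cells in the results was not tested.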

How the data were processed

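The authors aligned reads to mm10 (GRCm38), called peaks with the ENCODE ATAC-seq pipeline and, per the file names, filtered each library's list by irreproducible discovery rate on its pseudoreplicates and by a blacklist. The deposited lists give coordinates and a score of unstated scale, used here only to rank peaks within a list. Python 3.11.15, numpy 2.4.6, scipy 1.17.1 and pandas 2.3.3 were used. Peaks overlapping by at least 1 bp were merged (median 489 bp), a region was called where at least 1 bp was covered, and its midpoint was assigned to the nearest protein-coding gene start (GENCODE M21) within 50 kb.

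Regions called in 2 to 12 libraries were tested by an exact two-sided permutation of ranked times. Genes with at least 3 regions were tested by 100000 shuffles (smallest p 1e-05), with Benjamini-Hochberg at 0.05 over all features. Members, lists and motifs were chosen with earlier results of these data known. Regions over a start, gained, lost, passing the trend test or called in all libraries were described singly, and the 3 most correlated genes were named. The tests were tried on simulated data. The study's read-count test was not used here.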

Additional observations from a re-analysis of the deposited data

How the results depend on the processing

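Libraries with the same replicate number were not treated as paired in the main tests. The correlations of their deviations ran from -0.0152 to 0.0124 over 21 pairs of time points. These correlations cannot show a shift shared by all regions. Replicate 2 had more peaks than replicate 1 at every time point, from 61403 against 61393 at 8 h to 62604 against 59741 at 4 h and 61988 against 58322 at 2 h. With a replicate block, the falling regions numbered 1 in place of 2, the rising ones 5, and rho was 0.90 for Pdgfra (permutation test, adjusted p = 0.00455), -0.62 for Kit (0.0873) and -0.40 for Kdr (0.349). The rise at Pdgfra passed in all 24 alternatives, at rho 0.81 to 0.94 (permutation test, adjusted p 0.000964 to 0.0112). For Kit, rho was -0.69 with 50% of a region covered (adjusted p = 0.0458), -0.79 within 100 kb (0.0110) and -0.76 in base pairs (0.0175). The fall did not pass within 20 kb (rho = -0.14, permutation test, adjusted p = 0.780). Nor did it with any transcript's start (rho = -0.52, 0.149) or with peaks up to 100 bp apart joined (rho = -0.56, 0.121). For Kdr, rho was 0.70 within 20 kb (0.0254), -0.80 within 100 kb (0.00973) and -0.75 in base pairs (0.0190). Rising regions numbered 11 and falling 6 with the 50000 highest peaks per library, and 1 and 0 without 0 h. Falling regions numbered 1 with 50% covered, 0 within 20 kb and 5 within 100 kb. Within 20 kb, 0 Pdgfra, 2 Kit and 0 Kdr regions were lost at 48 h, and 6 Pdgfra regions and 1 Kit region were gained. Within 100 kb 2, 10 and 2 were lost, and 10 Pdgfra and 4 Kit regions were gained. With any transcript's start, 2 Pdgfra and 8 Kit regions were lost and 4 Kit regions gained. Joining peaks up to 100 bp apart left 7 gained Pdgfra regions and 3 lost Kit regions. With 2 h as reference 0 Pdgfra, 2 Kit and 3 Kdr regions were lost and 1 Kit region was gained. Requiring 1 library in place of 2 gave 2, 9 and 2 lost, and 2 gained for Kdr. Leaving out 1 library gave 4 to 8 rising and 1 to 4 falling regions, 9 to 11 gained and 1 to 2 lost for Pdgfra, 2 to 3 and 5 to 9 for Kit, 1 to 2 and 1 to 2 for Kdr, and rho of 0.88 to 0.94 for Pdgfra, -0.75 to -0.50 for Kit and -0.60 to -0.31 for Kdr. The 9 lost Kit regions came without 0 h replicate 1. Among single regions, the trend call was kept in 110 alternatives and lost in 23, leaving aside the distance settings, which do not enter that test. The 2.8 kb region of Pdgfra kept it in all 19. The causes were not tested. The lists hold no depth, so an absent call gives no upper limit.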

Other observations

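A further 54 regions had Pdgfra, Kit or Kdr as the nearest gene but lay beyond 50 kb, 12 for Pdgfra, 25 for Kit and 17 for Kdr. Of these, 12 were gained at 48 h (22.2% against 14.5% of all regions) and 11 were lost (20.4% against 16.6%). By the trend test 5 of 40 tested rose and 5 fell (12.5% each, against 12.1% and 12.3% of all regions tested). They are reported as values, and which gene they act on, if any, is not known from these lists.

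Between Pdgfra and Kit, a stretch of 45.6 kb (chr5:75358169-75403756), singled out after its values were seen, held 10 regions, of which 5 were gained, 1 was lost and 1 was called by every 0 h and 48 h library. Of all regions, 14.5%, 16.6% and 18.7% did so. Both ends of the stretch were set at gained regions, so its gained count is not comparable with the share of all regions. The strongest, 207.6 kb upstream of Kit (chr5:75366992-75367738), was called in all 12 induced libraries and in neither at 0 h. Its score percentile was 78.7 and 74.7 at 2 h, 94.4 and 94.4 at 4 h, 96.6 and 97.6 at 16 h, 99.4 and 98.3 at 24 h, and 99.9 and 99.9 at 48 h, so that it was among the highest peaks of the 48 h lists. A region 197.4 kb upstream of Kit was called weakly at 0 h, at 10.1 and 28.3, in neither library at 2 and 4 h, and from 16 h on at 94.8 to 98.0. The region 188.9 kb upstream of Kit was called at 24 and 48 h only, at 67.0 and 67.0 and then 92.9 and 93.0. It rose with time, as did those 206.1 and 206.7 kb downstream of Pdgfra (exact permutation test, adjusted p = 0.0130 each).

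The region 114.6 kb upstream of Kit took another course. It was called in neither 0 h library, stood at 94.6 and 90.6 at 2 h and 95.5 and 95.1 at 4 h, and was at 31.3 and 22.9 at 24 h and at 30.5 in the single 48 h library that called it. Beyond the limit, 5 regions in all were called in both 2 h libraries and in no library of 0 h or 48 h (9.26%, against 6.56% of all regions).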
